A study of Mus musculus with 8 samples.

Results

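Genes of the blood-brain barrier endothelium were followed in chronic stroke infarcts of aged mice, using 10 genes listed by name as barrier or endothelial genes: the tight junction genes Cldn5, Ocln and Tjp1, the transporters Slc2a1, Mfsd2a, Abcb1a and Slco1c1, the pan-endothelial genes Pecam1 and Cdh5, and Plvap as a marker of leaky vessels. The rule that lists them uses no measured value, although it was set with earlier results of these data known. All 10 were found among the 46078 gene identifiers of the count tables, each under 1 identifier, and all 10 passed the filter on low counts that left 14736 genes for testing. The animals were wild-type mice of the C57BL/6J strain, 18 months old, and every animal had undergone DH stroke (closure of the middle cerebral artery far out on its course, combined with hypoxia). From 1 week after stroke, 4 animals received phosphate-buffered saline (vehicle) and 4 received 2-hydroxypropyl-β-cyclodextrin (HPβCD, a cyclic sugar that carries cholesterol and other lipids in its cavity) at 4 g/kg, both under the skin 3 times per week for 6 weeks. Infarcts were collected at 7 weeks after stroke, and their polyadenylated RNA was sequenced. The infarcts were recognised by eye and dissected by hand, and the amount of adjoining brain in each piece is not given in the sources used here.

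Brain capillary endothelial cells are sealed to each other by tight junctions, take up nutrients through dedicated carriers, pump out foreign compounds, and carry few of the openings and vesicles through which plasma leaks in other organs. These properties are induced and kept by signals from neighbouring cells, among them Wnt ligands from neural cells, and by contact with pericytes and astrocyte endfeet. Endothelial cells that lose barrier properties are known to lose carriers such as Mfsd2a and to gain Plvap, which forms the diaphragms of fenestrae and caveolae.

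The start regions of the genes on which the comparison turns are given here, read 5′ to 3′ on the strand of the gene. They comprise Slco1c1 and Mfsd2a, the 2 genes with the most negative differences, and Cldn5, the main junction gene, in which no difference passed the test. Each is the 250 bases before the RefSeq transcript start on build GRCm38.p6, from chr6:141524104-141524353 (plus strand) for Slco1c1, chr4:122961189-122961438 (minus strand) for Mfsd2a and chr16:18776597-18776846 (plus strand) for Cldn5. Capitals mark matches to the motifs searched, on either strand.
Slco1c1: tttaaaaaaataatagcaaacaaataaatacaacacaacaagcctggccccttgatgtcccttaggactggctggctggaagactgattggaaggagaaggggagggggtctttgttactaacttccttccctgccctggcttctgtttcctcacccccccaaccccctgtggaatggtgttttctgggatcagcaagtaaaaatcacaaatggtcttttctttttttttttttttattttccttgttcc
Mfsd2a: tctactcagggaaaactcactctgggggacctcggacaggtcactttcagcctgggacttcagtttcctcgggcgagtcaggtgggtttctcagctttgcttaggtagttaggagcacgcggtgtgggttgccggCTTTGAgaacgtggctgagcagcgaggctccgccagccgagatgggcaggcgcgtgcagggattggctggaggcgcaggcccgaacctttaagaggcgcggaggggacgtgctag
Cldn5: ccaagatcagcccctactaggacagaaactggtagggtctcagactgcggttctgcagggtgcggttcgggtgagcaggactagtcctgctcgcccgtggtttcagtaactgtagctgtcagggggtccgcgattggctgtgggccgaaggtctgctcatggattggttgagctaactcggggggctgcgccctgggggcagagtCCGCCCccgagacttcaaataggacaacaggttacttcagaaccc
The Mfsd2a window held 1 match to CTTTGA, the core bound by TCF and LEF factors, and the Cldn5 window held 1 match to GGGCGG, a GC box. The Slco1c1 window held neither, and none of the 3 windows held CGGAAG, a core bound by ETS factors. These motifs do not overlap one another in the windows shown. The RefSeq table held 7 of the 10 genes, and Pecam1, Cdh5 and Plvap were not among them. The Abcb1a and Tjp1 windows lie 92986 and 156537 bp from the 5′ end of the gene in the GENCODE annotation. CTTTGA was present in 2 of these 7 windows (Mfsd2a and Abcb1a) and in 13.83% of 32851 windows of the same length, GGGCGG in 4 of 7 and in 32.74%, and CGGAAG in 1 of 7 (Tjp1) and in 13.59%. GC content was 42.8% in the Slco1c1 window, 61.6% in that of Mfsd2a and 59.6% in that of Cldn5, against a median of 52.4% over all windows.

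Libraries held between 16.6 M and 32.9 M reads assigned to genes. The labels give 1 library per replicate number, taken here as separate animals, and no batch. Levels are given as CPM (counts per 1 M reads of the library total after TMM scaling). Endothelial RNA was present in every library, as seen in 14 further pan-endothelial genes (Kdr, Flt1, Tek, Tie1 and others), none of them among the 10. They summed to between 447 and 548 CPM in vehicle and between 533 and 988 CPM in HPβCD animals. Vehicle animals 1 and 3 stood apart from the other animals by their neuron markers. Their 10 neuron markers summed to 1077 and 6432 CPM, against 18.7 to 103 CPM in the other 6 libraries. Their 12 astrocyte markers summed to 7752 and 9679 CPM, against 721 to 3953 CPM, but much of this was the glutamate transporter gene Slc1a2. Without it the sums were 3997 and 2248 CPM, against 640 to 2840 CPM, so that vehicle animal 3 no longer stood apart. The 8 oligodendrocyte markers summed to 5264 and 1665 CPM in vehicle animals 1 and 3, against 379 to 3382 CPM in the other libraries. Vehicle animal 3 was thus inside that range. No neuron or astrocyte marker was at 0 in all libraries. Values without these 2 animals are given beside many of the results, but not beside all of them.

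To compare HPβCD-treated with vehicle-treated infarcts, differences were tested with edgeR's quasi-likelihood test across all 14736 genes, with Benjamini-Hochberg adjustment over all of them. Slco1c1 was the only one of the 10 genes to pass an adjusted p of 0.05, and it fell, where 1.95% of all tested genes passed (287 genes, of which 173 rose and 114 fell). At an unadjusted p under 0.05, 5 of the 10 genes were counted, against 27.8% of all tested genes. By direction alone, 5 were higher and 5 lower in HPβCD animals, and their median log2 fold change was 0.10, against -0.05 over all tested genes. CPM of the 2 groups did not overlap for 2 of the 10, Slco1c1 (lower) and Plvap (higher). Such separation was found in 16.8% of all tested genes (8.77% higher and 8.03% lower). The number of the 10 that passed depended on the test. The DESeq2 Wald test and limma-voom each called 5 of the 10, namely Mfsd2a, Abcb1a, Slco1c1, Cdh5 and Plvap, but they also called 17.5% and 21.9% of the genes they tested.

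**Figure D1:**
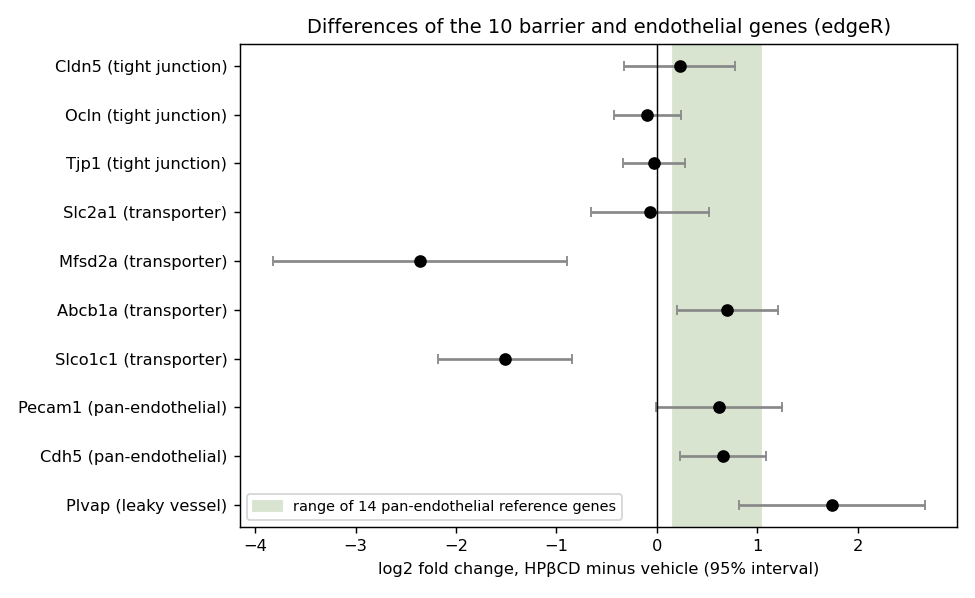
Log2 fold change (HPβCD minus vehicle, edgeR) of each of the 10 genes on the x axis, with bars for the 95% interval and a shaded band for the range of 14 other pan-endothelial genes (0.16 to 1.04). Abcb1a, Pecam1 and Cdh5 lie inside the band and Cldn5 at its low end, Ocln, Tjp1 and Slc2a1 lie near 0, Slco1c1 (-1.51) and Mfsd2a (-2.36) lie far below the band and Plvap (1.74) above it.

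None of the 3 tight junction genes passed the test. Cldn5 encodes claudin-5, the main claudin of brain endothelium, and lies on chromosome 16 (18776847 to 18778262, GRCm38) as a single exon. Its level was 79.0, 46.6, 58.8 and 63.4 CPM in vehicle animals 1 to 4 and 103, 76.1, 57.6 and 53.3 CPM in HPβCD animals 1 to 4. The groups overlapped, with the 2 highest values split between vehicle animal 1 and HPβCD animal 1. The log2 fold change was 0.23 (SE 0.24, 95% interval -0.32 to 0.78; edgeR adjusted p = 0.588).

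Ocln encodes occludin, a membrane protein of the same junctions (chromosome 13, 100496507 to 100552718). Vehicle animals gave 19.3, 21.1, 17.7 and 23.7 CPM, compared with 21.6, 19.2, 18.6 and 17.2 CPM in HPβCD animals, so all 8 values lay in a narrow range with the groups mixed. Its log2 fold change was -0.09 (SE 0.15, 95% interval -0.42 to 0.24; edgeR adjusted p = 0.722). Tjp1 encodes ZO-1, the scaffold that ties junction proteins to actin, which many cell types besides endothelium express (chromosome 7, 65296165 to 65527781). Vehicle animals had 244, 277, 215 and 260 CPM and HPβCD animals had 221, 257, 231 and 268 CPM. These values overlapped throughout, and the log2 fold change of -0.03 (SE 0.14, 95% interval -0.34 to 0.28; edgeR adjusted p = 0.918) took the opposite sign in 5 of 15 alternative fits. The 95% intervals of Ocln and Tjp1 leave out a change of 1 log2 unit in either direction, as does that of Cldn5.

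**Figure D2:**
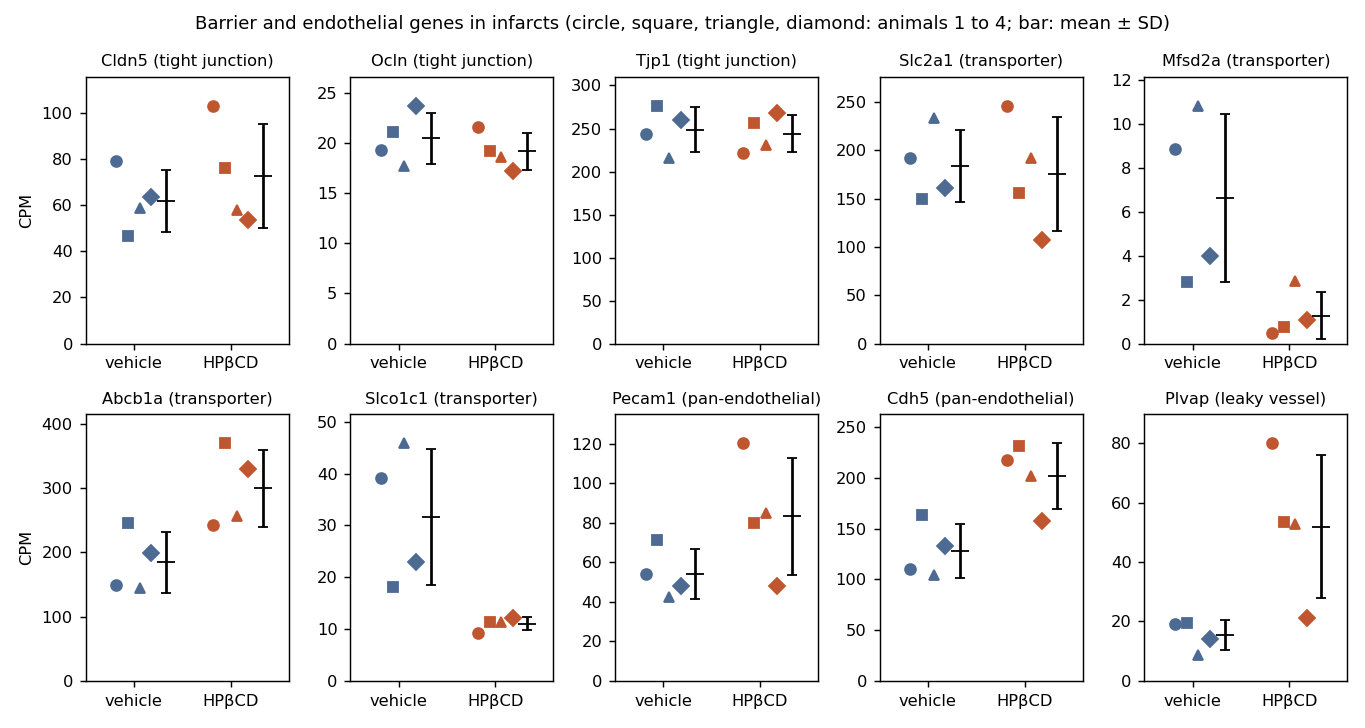
CPM (y axis, starting at 0) of the 10 genes in each infarct, 1 panel per gene, with vehicle animals in blue and HPβCD animals in orange, symbols for animals 1 to 4 and a bar for mean ± SD (n = 4). The groups do not overlap for Slco1c1, where HPβCD animals lie between 9.25 and 12.2 CPM, nor for Plvap, where they lie between 21.2 and 80.0 CPM.

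The 4 transporters went different ways. Slc2a1 encodes GLUT1, which brings glucose across the barrier and is also found in astrocytes (chromosome 4, 119108711 to 119137983). Levels of 191, 150, 233 and 161 CPM in the vehicle group stood against 246, 155, 192 and 107 CPM in the HPβCD group, and HPβCD animals held both the highest and the lowest value. The log2 fold change was -0.07 (SE 0.26, 95% interval -0.66 to 0.52; edgeR adjusted p = 0.889), and its sign turned in 4 of 15 alternative fits, among them the fit without vehicle animals 1 and 3 (0.19). A gene on the opposite strand, Gm12868, overlaps 2.995% of its exonic bases, and the sources used here do not state whether counting used the strand.

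Slco1c1 encodes OATP1C1, a carrier of thyroid hormone that is known from barrier endothelium and also from astrocytes and choroid plexus (chromosome 6, 141524368 to 141570177). Vehicle animals 1 to 4 had 39.2, 18.1, 45.9 and 23.0 CPM, and HPβCD animals 1 to 4 had 9.25, 11.4, 11.4 and 12.2 CPM. Every HPβCD animal was below every vehicle animal, and vehicle animals 1 and 3, those with the highest neuron marker sums, were the highest. Mean CPM was 31.6 ± 13.1 (SD, n = 4) in vehicle and 11.1 ± 1.25 in HPβCD animals. The level fell by 1.51 on the log2 scale (SE 0.30, 95% interval -2.18 to -0.84; edgeR adjusted p = 0.0483). Without vehicle animals 1 and 3 the log2 fold change was -0.88 (edgeR adjusted p = 0.0530), and the groups still did not overlap. The call was also lost on leaving out vehicle animal 1, vehicle animal 4 or any single HPβCD animal, with adjusted p up to 0.175, while it was kept without vehicle animal 2 (0.0401) or vehicle animal 3 (0.0350).

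Mfsd2a encodes the carrier that moves lysophospholipids bearing docosahexaenoic acid into the brain and restrains vesicle transport across endothelial cells (chromosome 4, 122946850 to 122961188). It was the least abundant of the 10 genes, with 157, 98, 179 and 74 reads in vehicle animals and 8, 12, 53 and 19 reads in HPβCD animals. These corresponded to 8.88, 2.81, 10.8 and 3.98 CPM and to 0.46, 0.74, 2.84 and 1.05 CPM. The groups met at their edges, since HPβCD animal 3 was just above vehicle animal 2, and vehicle animals 1 and 3 were again the highest. The log2 fold change of -2.36 (SE 0.64, 95% interval -3.83 to -0.90) had an edgeR adjusted p of 0.0757, and without vehicle animals 1 and 3 it was -1.38 (edgeR adjusted p = 0.228).

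Abcb1a encodes P-glycoprotein, the pump that returns many drugs from the endothelial cell to the blood (chromosome 5, 8660077 to 8748575). Its values were 149, 246, 144 and 199 CPM in vehicle animals and 243, 370, 257 and 329 CPM in HPβCD animals. Overlap was limited to vehicle animal 2, which was slightly above HPβCD animal 1. The log2 fold change was 0.70 (SE 0.22, 95% interval 0.20 to 1.20; edgeR adjusted p = 0.0940), and 0.45 without vehicle animals 1 and 3. The gene has a near copy, Abcb1b, and reads that fit several places were not assigned, while Gm42686 overlaps 10.091% of its exonic bases on the opposite strand, so its level is uncertain. Abcb1b itself had a log2 fold change of 0.12 (edgeR adjusted p = 0.771), and it is named here after its values were seen.

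The 2 pan-endothelial genes had similar differences, neither of which passed the test. Cdh5 encodes VE-cadherin, the adhesion protein of endothelial cell contacts (chromosome 8, 104101625 to 104144511). Vehicle animals had 110, 164, 105 and 133 CPM, against 217, 232, 202 and 157 CPM in HPβCD animals, with overlap between vehicle animal 2 and HPβCD animal 4. The log2 fold change was 0.66 (SE 0.19, 95% interval 0.23 to 1.09; edgeR adjusted p = 0.0805). Without vehicle animals 1 and 3 it was 0.46 (edgeR adjusted p = 0.196). Pecam1 encodes the adhesion protein CD31, which platelets and leukocytes carry as well (chromosome 11, 106654217 to 106750628). Its 4 vehicle values were 54.1, 71.4, 42.6 and 48.1 CPM, and its 4 HPβCD values were 120, 79.7, 84.9 and 47.9 CPM. HPβCD animal 4 was at the level of the vehicle animals, and the other 3 HPβCD animals were above all of them. Its log2 fold change was 0.62 (SE 0.28, 95% interval -0.0054 to 1.25; edgeR adjusted p = 0.183) for Pecam1. Without vehicle animals 1 and 3 that of Pecam1 was 0.49 (edgeR adjusted p = 0.427).

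Plvap, the marker of fenestrated and leaky vessels (chromosome 8, 71497765 to 71511752), had the most positive difference of the 10 genes. Vehicle animals 1 to 4 had 19.3, 19.5, 8.78 and 14.3 CPM, and HPβCD animals 1 to 4 had 80.0, 53.4, 52.6 and 21.2 CPM. All HPβCD animals were above all vehicle animals, although HPβCD animal 4 exceeded vehicle animal 2 only narrowly. Means were 15.5 ± 5.08 CPM (SD, n = 4) and 51.8 ± 24.1 CPM, a ratio of 3.35. The log2 fold change was 1.74 (SE 0.41, 95% interval 0.82 to 2.67), and it missed the threshold (edgeR adjusted p = 0.0624). It passed on leaving out HPβCD animal 4 (log2 fold change 2.01, edgeR adjusted p = 0.0350), and was 1.63 (adjusted p = 0.142) without vehicle animals 1 and 3.

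In a piece of tissue, fewer cells of a type and less RNA per cell cannot be told apart. The 10 genes were therefore also set against other endothelial genes of the same library. Mean log2 CPM of the 14 pan-endothelial reference genes was 4.26, 4.56, 4.13 and 4.27 in vehicle animals and 5.34, 4.98, 4.77 and 4.48 in HPβCD animals, with HPβCD animal 4 just below vehicle animal 2. The difference was 0.59, which did not pass an exact two-sided permutation test over 70 assignments of the animals (p = 0.0571, where 0.0286 is the smallest possible). Without vehicle animals 1 and 3 it was 0.50 (exact permutation p = 0.20, where 0.0667 is the smallest possible). All 14 genes had positive log2 fold changes (median 0.53), among them Flt1 (0.16) and Eng (1.00), receptors for VEGF and for TGF-β family ligands, and 0 passed edgeR's adjusted p of 0.05. At an unadjusted p under 0.05 there were 7 of 14.

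The ratio of each gene to this reference was expressed as log2 CPM of the gene minus the reference mean. The ratio did not overlap between groups for 3 of the 10 genes, all lower in HPβCD animals, and this was so for 20.7% of all tested genes. Slco1c1 had ratios of 1.04, -0.37, 1.39 and 0.26 in vehicle animals and of -2.11, -1.46, -1.25 and -0.86 in HPβCD animals, a difference in means of -2.00. Mfsd2a ranged from -3.01 to -0.68 in vehicle and from -6.17 to -3.22 in HPβCD animals, a difference of -2.97. For Ocln the ratios were 0.02, -0.15, 0.03 and 0.31 in vehicle animals and -0.90, -0.71, -0.55 and -0.36 in HPβCD animals, a difference of -0.68, although its CPM did not separate.

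The other junction genes and Slc2a1 were also lower in mean ratio, but with overlap. The difference in mean log2 ratio was -0.39 for Cldn5, -0.62 for Tjp1 and -0.70 for Slc2a1. Because the reference was higher by 0.59 in HPβCD animals, a gene with equal mean log2 CPM in both groups is lower in ratio by 0.59. The differences of Tjp1, Slc2a1 and Ocln lie near this shift, and that of Cldn5 is smaller. They therefore mostly restate the higher reference. Cldn5 overlapped because vehicle animal 2 had a ratio of 0.99, below the 1.08 to 1.35 of the HPβCD animals. Its separation without vehicle animal 2 therefore follows from the choice of that animal. In that setting the number of genes that did not overlap was 6 of 10, with Cldn5, Tjp1 and Slc2a1 added. Abcb1a (0.12), Cdh5 (0.07) and Pecam1 (-0.02) had differences near 0, so that these 3 were higher by about as much as the reference. Plvap had a difference in ratio of 1.07, with vehicle animal 1 (0.02) just above HPβCD animal 4 (-0.06). Without HPβCD animal 4 the number that did not overlap was 5 of 10, and without vehicle animals 1 and 3 it was 4 of 10, with Plvap added. For these reduced sets no share over all tested genes was taken. The 20.7% holds for all 8 libraries, and leaving out animals makes overlap less likely for any gene.

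**Figure D3:**
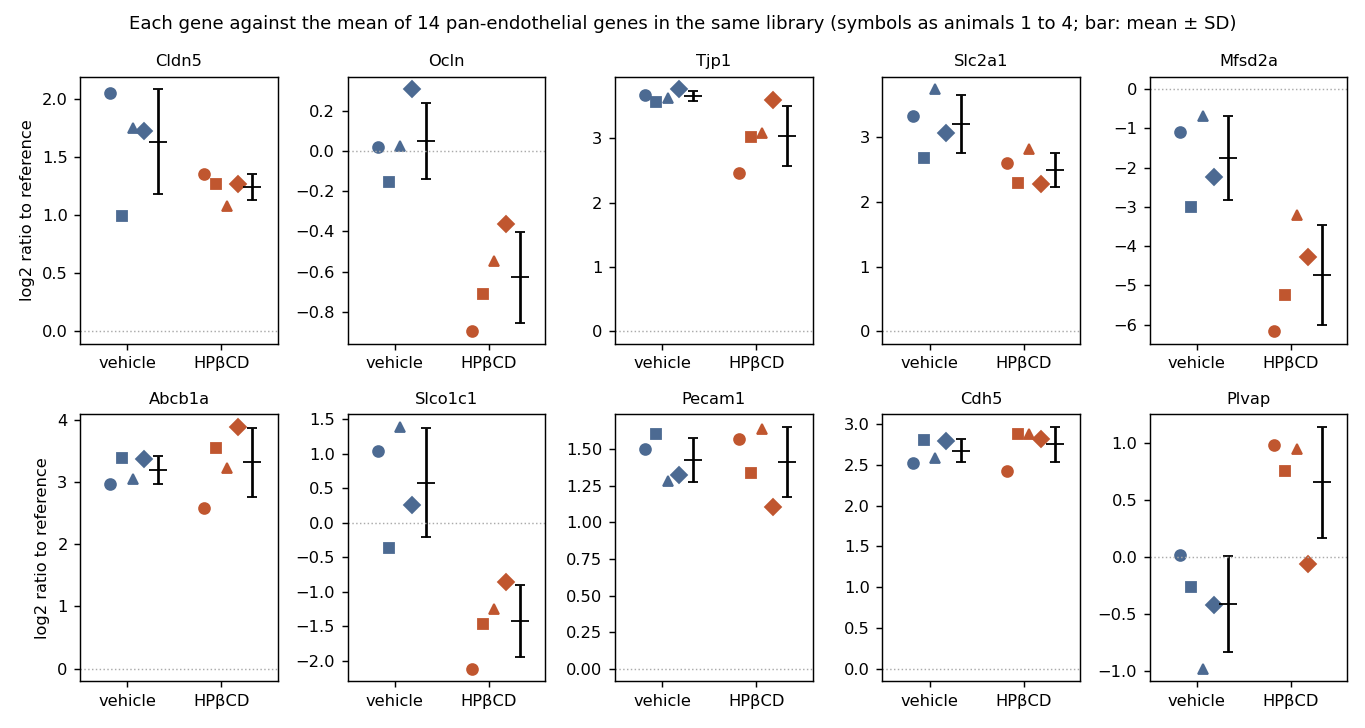
Log2 ratio (y axis) of each gene to the mean of 14 pan-endothelial reference genes in the same library, 1 panel per gene, with symbols for animals 1 to 4, vehicle in blue, HPβCD in orange, a bar for mean ± SD (n = 4) and a dotted line at 0. Ocln, Mfsd2a and Slco1c1 do not overlap between groups, and Abcb1a, Pecam1 and Cdh5 have similar means in both.

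Plvap was also set against Cldn5 directly, as a marker of leaky vessels against the main junction gene. The log2 CPM of Plvap minus that of Cldn5 was -2.03, -1.25, -2.73 and -2.15 in vehicle animals and -0.36, -0.51, -0.13 and -1.33 in HPβCD animals. Vehicle animal 2 and HPβCD animal 4 crossed, and the other HPβCD animals were above all vehicle animals. The difference in means was 1.45, with p = 0.0571 by the exact two-sided permutation test, and it was 1.11 (p = 0.133 by the same exact test) without vehicle animals 1 and 3.

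Levels of other cell types moved alongside these genes. Summed astrocyte markers were 7752, 2410, 9679 and 3953 CPM in vehicle animals and 721, 911, 2739 and 1550 CPM in HPβCD animals. Within the vehicle group, Slco1c1, Mfsd2a and the astrocyte sum took the same order of animals (3, 1, 4, 2), and within the HPβCD group Mfsd2a and the astrocyte sum did so (3, 4, 2, 1), while Slco1c1 was nearly level there. The order of the vehicle sum rests on Slc1a2, without which it was 3997, 1725, 2248 and 2840 CPM in animals 1 to 4. Taken singly, 6 of the 12 markers had the order 3, 1, 4, 2 and 9 of 12 had animals 1 and 3 as the 2 highest of the vehicle group, while Aqp4 and Gfap, chosen here after their values were seen, were lowest there in animal 3. Of the 12 astrocyte markers, 11 were lower in HPβCD animals (median log2 fold change -1.65). Dtna, a component of the endfoot dystrophin complex, fell (log2 fold change -2.01; edgeR adjusted p = 0.0499). Without vehicle animals 1 and 3 the median was -1.08, 11 of 12 were still lower, and Dtna had -1.23 (edgeR adjusted p = 0.0828). The part of astrocytes in the values of Slco1c1 and Mfsd2a was not tested. Choroid plexus markers, a further possible source of Slco1c1, summed to 15.7 to 17.2 CPM in vehicle and 16.6 to 22.5 CPM in HPβCD animals. Clic6 carried much of that sum, and without it the sums were 8.43 to 14.2 CPM and 7.77 to 9.60 CPM, with overlap. The part of choroid plexus was not tested either.

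**Figure D4:**
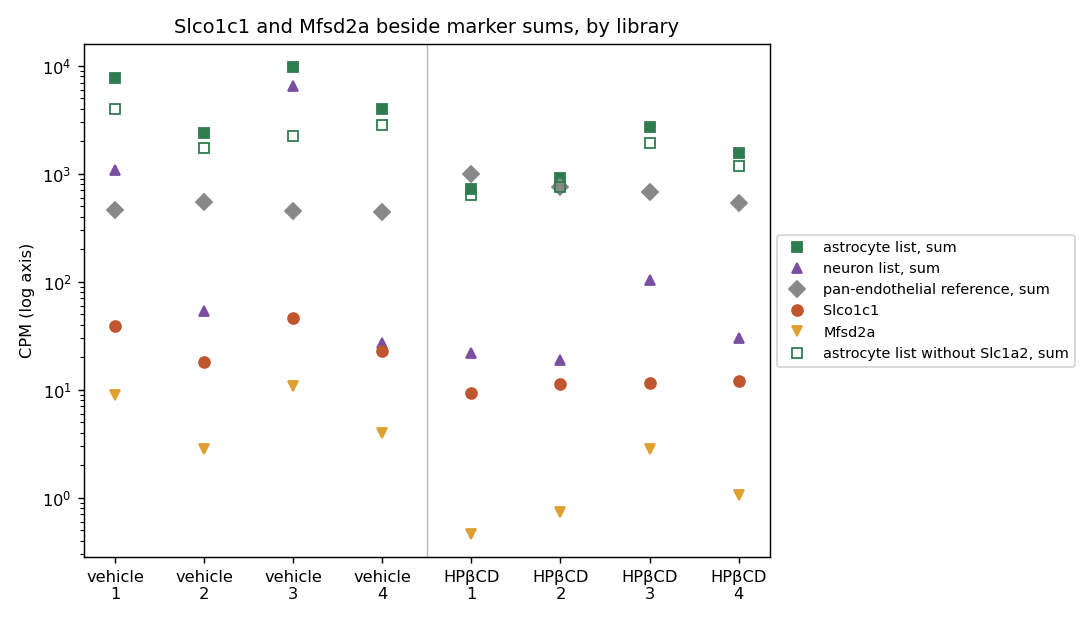
CPM on a log axis of Slco1c1 and Mfsd2a, and summed CPM of 12 astrocyte markers, 10 neuron markers and 14 pan-endothelial reference genes, in each of the 8 libraries (x axis), with open squares for the astrocyte sum without Slc1a2. Slco1c1, Mfsd2a and the full astrocyte sum are highest in vehicle animals 1 and 3, whereas without Slc1a2 vehicle animal 4 (2840 CPM) lies above vehicle animal 3 (2248 CPM).

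Cells around the vessels also differed in their markers. Pericyte and smooth muscle markers summed to 543 to 755 CPM in vehicle and 867 to 1139 CPM in HPβCD animals, without overlap. Of the 11 tested, 10 were higher (median log2 fold change 0.35). The pericyte receptor Pdgfrb, which fibroblasts also carry, rose (1.18; edgeR adjusted p = 0.0483), while the abundant pericyte gene Rgs5 had 0.34 and did not pass. The 1 lower gene was Atp13a5 (-0.89; edgeR adjusted p = 0.0785), named after its values were seen. Fibroblast and meningeal markers summed to 2606 to 6471 CPM in vehicle and 9274 to 10194 CPM in HPβCD animals. Of the 9 tested, 7 were higher and 2 lower (median log2 fold change 0.87). Col1a1 (1.61) and Col1a2 (1.46), the chains of type I collagen, were the 2 that passed, and Dcn had 0.80 without passing. The 2 lower genes were Slc6a13 (-0.84; edgeR adjusted p = 0.0502) and Slc22a6 (-0.30; edgeR adjusted p = 0.193), named after their values were seen. Slc6a13 was lower in every HPβCD animal than in any vehicle animal. Macrophage and microglia markers summed to 4932 to 7815 CPM and to 10440 to 17087 CPM, a sum made up mostly of Gpnmb, which rose (1.38). Without Gpnmb the sums overlapped, at 1446 to 3189 CPM and 1696 to 2474 CPM. Of the 9 genes, 4 were higher and 5 lower (median -0.0081), and Lpl did not pass (-0.21). Their part in the values of Plvap, Cdh5, Pecam1 and Abcb1a was not tested.

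The remaining marker lists did not share 1 direction. Of 9 tested neuron markers, 9 were lower and 0 passed edgeR's adjusted p, with 9 at an unadjusted p under 0.05 and a median log2 fold change of -5.84 (Snap25 -6.48, Syt1 -5.85). These differences rest on vehicle animals 1 and 3, without which 5 of the 9 were higher, 4 were lower and the median was 0.05. Of 8 oligodendrocyte markers 7 were lower and 0 passed, with 0 at an unadjusted p under 0.05 (Mbp -1.65, median -1.90). Among 7 lymphatic endothelial genes, 5 were higher and 2 lower, and the median was 0.44. Flt4 (1.36) and Ccl21a (2.45) rose, Ccl21a having near-identical copies and so an uncertain count, while Pdpn had 0.44 and did not pass. The 2 lower genes, Prox1 (-0.40) and Reln (-0.39), did not pass and are named after their values were seen. Of 6 erythroid and platelet genes tested, 3 were higher and 3 lower (Hbb-bs 0.38, Hba-a1 0.62, median -0.10), and of 4 choroid plexus genes 1 was higher (Clic6 1.08, Kl -0.34, median -0.22). Neither of these last 2 lists had a gene that passed.

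Compared per kilobase of merged exons, the 10 genes fell into a high and a low group. In vehicle infarcts the mean levels were 52.4 ± 10.6 CPM per kb (SD, n = 4) for Slc2a1, 43.7 ± 9.48 for Cldn5, 33.6 ± 8.71 for Abcb1a, 31.9 ± 3.34 for Tjp1 and 30.4 ± 6.39 for Cdh5. These 5 genes overlapped their neighbours in the order, and each was above the next 5 in every animal. Pecam1 (8.67 ± 2.01 CPM per kb), Plvap (7.78 ± 2.56), Slco1c1 (6.08 ± 2.53), Ocln (4.84 ± 0.61) and Mfsd2a (2.95 ± 1.71) followed, again each overlapping the next.

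In HPβCD infarcts the order differed at both ends. Abcb1a (54.7 ± 11 CPM per kb), Cldn5 (51.2 ± 16.0), Slc2a1 (50.0 ± 16.7) and Cdh5 (48.1 ± 7.70) overlapped one another. Tjp1 (31.3 ± 2.77) lay below every value of Abcb1a, Cldn5 and Cdh5 but overlapped Slc2a1, whose lowest animal had 30.5 CPM per kb. Plvap (26.1 ± 12.1) came next and overlapped Tjp1 in range, and it was above Pecam1 (13.4 ± 4.76) in all 4 animals. Below them Ocln (4.54 ± 0.43), Slco1c1 (2.13 ± 0.24) and Mfsd2a (0.57 ± 0.48) each stood clear of the gene before in every animal.

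Further junction genes were examined beyond the 3 above. Of 16 on the list, 13 could be tested, of which 9 were higher and 4 lower in HPβCD animals (median log2 fold change 0.35), and 2 passed the test. Ctnnd1, which encodes p120-catenin, the partner that holds cadherins at the membrane, rose from 15.3 to 21.2 CPM in vehicle to 28.5 to 41.9 CPM in HPβCD animals (log2 fold change 1.03, SE 0.18; edgeR adjusted p = 0.0472). Jup, plakoglobin of adherens junctions and desmosomes, rose by 0.88 (SE 0.18; edgeR adjusted p = 0.0499). Both belong to adhesion complexes that many cell types share. The abundant scaffold gene Afdn (0.64) did not pass.

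Further barrier carriers and receptors numbered 20, of which 19 were tested, 13 higher and 6 lower (median 0.15). The lipoprotein receptor Lrp1, which macrophages and fibroblasts express as well, rose by 1.13 on the log2 scale (SE 0.23) and the nucleoside carrier Slc29a1 by 0.80 (SE 0.17), both with an edgeR adjusted p of 0.0499. The taurine carrier Slc6a6 (0.70) did not pass. Slco1a4, an organic anion carrier of the same family as Slco1c1, gave 126, 99.2, 100 and 111 CPM in the vehicle group, against 77.7, 74.1, 61.4 and 91.2 CPM in the HPβCD group. Its groups did not overlap, and its log2 fold change was -0.52 (edgeR adjusted p = 0.0833). It is named after its values were seen.

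In the Wnt pathway that induces the barrier, 22 of 22 genes were tested, 12 higher and 10 lower (median 0.20), and 1 passed. Lrp5, a Wnt co-receptor, rose by 1.02 (SE 0.19; edgeR adjusted p = 0.0483), and the abundant Ctnnb1 (β-catenin, 0.66) and Lrp6 (0.46) did not pass. The following genes are named after their values were seen. The ligands had negative log2 fold changes, of -1.73 for Wnt7a, -2.02 for Wnt7b and -2.42 for Ndp (norrin), with edgeR adjusted p of 0.0868, 0.136 and 0.0738. Ndp did not overlap between groups, at 6.11, 3.07, 10.7 and 4.46 CPM in vehicle and 0.34, 0.37, 2.09 and 1.67 CPM in HPβCD animals. It was highest in vehicle animals 3 and 1, as were Wnt7a and Wnt7b. Without these 2 animals the log2 fold changes were -1.10 for Wnt7a, -0.33 for Wnt7b and -1.71 for Ndp, with edgeR adjusted p of 0.292, 0.780 and 0.187. Axin2 and Apcdd1, known targets of the pathway, did not overlap either, with 6.63 to 9.32 CPM against 4.24 to 5.11 CPM for Axin2 (log2 fold change -0.66; edgeR adjusted p = 0.0744) and 14.9 to 23.0 CPM against 8.44 to 12.8 CPM for Apcdd1 (-0.92; edgeR adjusted p = 0.0556). Nkd1, also on the list, was likewise lower in every HPβCD animal than in any vehicle animal (-0.80). It missed the threshold, at 0.176 after adjustment in edgeR's test. Without vehicle animals 1 and 3 the log2 fold changes were -0.55 for Axin2, -0.81 for Apcdd1 and -0.70 for Nkd1. Their edgeR adjusted p values were then 0.172, 0.112 and 0.362. Not all targets and effectors on the list were lower in every HPβCD animal. Lef1 (-0.06), Tcf7 (-0.23), Ppard (0.21) and Sox17 (0.57) overlapped between groups, and Tcf7l1 (0.44) was higher in every HPβCD animal. None of these 5 passed. The co-receptors for Wnt7, Adgra2 (0.58) and Reck (0.38), were higher in every HPβCD animal than in any vehicle animal, with edgeR adjusted p of 0.0816 and 0.151.

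Of 15 other genes of activated or leaky vessels, 12 were higher and 3 lower (median 0.41), and 2 rose. Angpt2, which destabilises vessels by opposing Tie2 signalling, was at 11.7 to 27.3 CPM in vehicle and 43.1 to 53.6 CPM in HPβCD animals (log2 fold change 1.33, SE 0.24; edgeR adjusted p = 0.0483). Pgf, a growth factor of the VEGF family, was at 9.32 to 14.1 CPM and 17.7 to 27.4 CPM (1.03, SE 0.20; edgeR adjusted p = 0.0483). The adhesion molecule Vcam1 (0.41) and the clotting protein gene Vwf (0.55) did not pass. The 3 lower genes were Apln (-2.06), Ackr1 (-1.17) and Sele (-0.52), named after their values were seen. Their edgeR adjusted p values were 0.0948, 0.175 and 0.628. Without vehicle animals 1 and 3, 10 of the 15 were higher and 5 lower (median 0.17). Over all the lists beside the 10 genes, 14 of 158 tested genes passed. That number was 5 without vehicle animals 1 and 3 and between 0 and 19 with any 1 library left out. The 5 were Col1a1, Col1a2, Flt4, Lrp1 and Angpt2. Ctnnd1, Jup, Slc29a1, Lrp5, Pgf, Pdgfrb, Dtna, Ccl21a and Gpnmb no longer passed without vehicle animals 1 and 3. Their edgeR adjusted p values were then between 0.0584 and 0.0854. The shares of all tested genes that passed were 1.95% with all libraries and 1.34% without vehicle animals 1 and 3. With any 1 library left out they were between 0% and 4.22%.

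**Figure D5:**
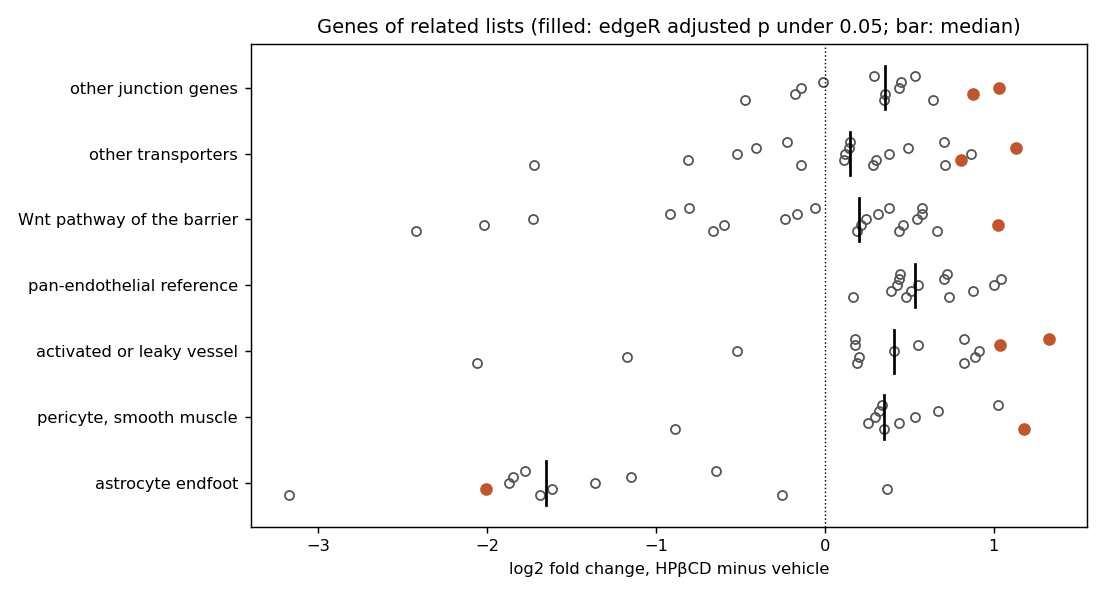
Log2 fold change (x axis, HPβCD minus vehicle) of the tested genes of 7 related lists, 1 point per gene, filled where edgeR's adjusted p was under 0.05, with a bar at the median of each list. The medians lie between 0.15 and 0.53 in the 6 vessel and Wnt lists and at -1.65 in the astrocyte list.

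The 10 genes were also compared with one another by their profiles over the 8 libraries, as the root mean square difference of log2 CPM after each gene was set to a mean of 0. Ocln and Tjp1 (0.17), Abcb1a and Cdh5 (0.25) and Pecam1 and Cdh5 (0.26) were the pairs most alike. Mfsd2a and Slco1c1 were each closest to the other among the 10, although at 0.77, and Plvap was closest to Pecam1 (0.60). Mfsd2a and Plvap differed most (2.34). All these profiles come from the same libraries and share their scaling.

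Among 13284 tested genes that averaged 1 CPM or more, the profiles most like that of Cldn5, which itself had a root mean square of 0.34, were those of Dhrs13 (0.13), Mks1 (0.14) and Gata2 (0.15). For Slc2a1 (0.36) they were Snu13 (0.14), Cluap1 (0.14) and Cchcr1 (0.15). For Plvap (1.02) they were Cpxm2 (0.28), Gdf10 (0.30) and Mfap2 (0.35). Since Plvap was higher in every HPβCD animal, the choice by likeness fixes the same direction for these 3 genes, and their log2 fold changes of 1.85, 1.66 and 1.76 are given as a description. Cpxm2 went from a mean of 27.6 to 99.0 CPM and Gdf10, a secreted factor of the TGF-β superfamily, from 36.8 to 116 CPM, while Mfap2, a component of extracellular microfibrils, went from 1.78 to 6.06 CPM. The likeness is a description over 8 libraries.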

How the data were processed

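Infarct RNA from 8 animals was made by the authors into stranded libraries after selection of polyadenylated RNA, and read from both ends. The submitters' processing notes name bcl2fastq 2.19, Trimmomatic 0.32, STAR 2.5.2b, HTSeq, DESeq2 and build GRCm38. The strand setting of the counting and the annotation release are not given in the sources used here. The deposited values are raw counts per gene, 1 table per animal. Lines for reads assigned to no gene (26.6% to 36.6% of a library) were left out. Those reads include alignments to several places, so near-identical genes are undercounted.

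Identifiers were matched to symbols with a table (45143 of 46078). Coordinates and exon lengths came from GENCODE M21 on GRCm38 and start regions from RefSeq. Groups and replicate numbers came from the titles. Every pair of libraries differed beyond sampling noise (chi-square per degree of freedom 20.3 or more).

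All genes were tested with edgeR 4.0.16 in R 4.3.3 (robust quasi-likelihood test, TMM scaling, filterByExpr by group, no covariate, Benjamini-Hochberg adjustment over all tested genes, threshold 0.05), and the procedure was tested on simulated data. CPM used TMM-scaled totals, and log2 CPM a prior count of 2. For single values, two-sided exact permutation tests were used. P-values set the group difference against the spread within these groups of 4 and 4 libraries, or, in permutation tests, against reassignments of the libraries. Alternatives were DESeq2 1.42.0, limma-voom 3.58.1 with sample weights, other scalings, no filter, another prior count, Cdh5 alone as the reference, the replicate number as a block, and leaving out libraries. Marker sums without the most abundant gene, and the lists without vehicle animals 1 and 3, were chosen after seeing the data. The members and lists were chosen with earlier results of these data known. Named are the 10 genes, the 2 most abundant and all called genes of each further list, and for Cldn5, Slc2a1 and Plvap the 3 genes with the most similar profile, leaving out genes without a proper name. Other genes are marked where named, and 2 genes that the rule names are not reported here.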

Additional observations from a re-analysis of the deposited data

How the results depend on the processing

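With the same 8 libraries, the number of genes called in all was 287, and it was 2911 by DESeq2, 3232 by limma-voom, 11 with library totals as the scaling and 9 with the replicate number as a block. The number among the 10 genes was 5, 5, 0 and 0 in these fits, and among the 158 genes of the other lists 63, 67, 0 and 0. The shares over all tested genes were 17.5%, 21.9%, 0.0746% and 0.0611%. Leaving out 1 library gave 0 to 629 genes in all and 0 to 1 of the 10. In edgeR the total was 0 with vehicle animal 1 left out (2996 genes at an unadjusted p under 0.05), with vehicle animal 4 left out (4216 such genes), with HPβCD animal 2 left out (2922) and with HPβCD animal 3 left out (3565). It was 4 after removal of HPβCD animal 1, 353 after that of HPβCD animal 4, 556 after that of vehicle animal 2 and 629 after that of vehicle animal 3. Without both vehicle animals 1 and 3, 202 genes were called in all and 0 of the 10. The cause of these differences was not tested. DESeq2 size factors in edgeR (300 genes) and no filter (296) kept Slco1c1 as the only gene of the 10 called. Slco1c1 was lower in all 15 alternative fits (log2 fold change -1.70 to -0.88, adjusted p 0.000238 to 0.175) and was called in 6 of them. Mfsd2a was lower in 15 of 15 (-3.12 to -1.38), and Plvap (1.46 to 2.01), Cdh5 (0.46 to 0.81), Abcb1a (0.45 to 0.88), Pecam1 (0.40 to 0.82) and Cldn5 (0.02 to 0.41) were higher in 15 of 15. Ocln was lower in 15 of 15 (-0.21 to -0.0018).

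Slc2a1 changed sign with limma-voom (0.094), on removal of vehicle animal 3 (0.068) or HPβCD animal 4 (0.11), and on removal of vehicle animals 1 and 3 together (0.19), and ranged from -0.27 to 0.11 with 1 library left out. Tjp1 changed sign with no filter (0.0017) and on removal of vehicle animal 2 (0.032) or 4 (0.0078) and of HPβCD animal 1 (0.022) or 3 (0.0029), and ranged from -0.089 to 0.032 with 1 library left out. Leaving out 1 library, the number of the 10 genes whose ratio to the reference did not overlap was 3 to 6, the difference in reference level 0.45 to 0.74, the latter without HPβCD animal 4 and with the smallest p this design allows there (exact permutation p = 0.0286), and the difference in the Plvap to Cldn5 ratio 1.22 to 1.72. The other scalings, the prior count of 0.5 and Cdh5 alone as the reference left the number of genes that did not overlap at 3. For the counts in these alternatives no share over all tested genes was taken.

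The samples share only a replicate number, and no label pairs them. Deviations of same-numbered samples correlated between -0.257 and 0.329, and 3 of 8 samples correlated best with their own number. With the replicate block, Slco1c1 had a log2 fold change of -1.42 and an adjusted p of 0.0889 in edgeR's quasi-likelihood test. Depth limits mainly Mfsd2a, whose lowest library held 8 reads.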
